A study of Homo sapiens with 4 samples.

Results

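The genes described here sense low oxygen or carry out glycolysis, the breakdown of glucose to pyruvate and lactate. The list of 37 genes was taken by symbol from the probe annotation of the array, keeping probes that name 1 gene alone. This gave 36 genes with 46 probes, out of 18365 genes and 24740 such probes on an array of 31741 probes. The remaining gene, PGAM1, had only probes shared with PGAM4. HepG2, a human liver cancer cell line, and A549, a human lung cancer cell line, were each measured at 6 h as a control and with GSK343 at 10 μM. Each of these 4 conditions had a single Human OneArray Plus array. GSK343 is an inhibitor of EZH2, the methyltransferase of histone H3 lysine 27. The labels call the controls only "Control" and name no vehicle and no low-oxygen group, and both lines were treated in DMEM with serum. Each array read RNA of a whole culture, so fewer cells that express a gene and less RNA per cell cannot be told apart.

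Hypoxia-inducible factor (HIF) is a transcription factor made of an oxygen-sensitive alpha subunit and the stable partner ARNT. In oxygen, prolyl hydroxylases of the EGLN family mark the alpha subunit for degradation through VHL, so that HIF is controlled largely at the protein level, which arrays do not read. When oxygen falls, HIF binds short sites with the core letters ACGTG or GCGTG and raises genes of angiogenesis, pH control, glucose uptake and glycolysis. Many glycolytic steps can be run by several isozymes, and liver cells and other epithelial cells use different ones. Tumor cells often keep glycolysis high in oxygen as well.

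The values are deposited Cy5 intensities on a linear scale. The medians of the arrays lay between 449.8 and 498.8, and 41 to 91 values per array were 0 or less and were left out. The differences given below are log2 units, either GSK343 minus control within a line or HepG2 minus A549 within a condition. No condition had a second array. The technical error of a GSK343 difference could be gauged only in part, from genes with several probes. The SD of the gap between such probes, over √2, is called the spread between probes here and was 0.39 in HepG2 and 0.42 in A549. It was 0.92 for the difference between the control arrays of the lines. Among the brightest 25% of pairs the GSK343 values were 0.26 in HepG2 and 0.35 in A549. Variation of culture, labelling or array that moves all probes of a gene together is not part of this spread. The cell lines were checked against their markers. All 10 liver markers were higher in HepG2 control than in A549 control, by 4.80 to 11.74 log2 units. Of 10 markers listed for A549, 6 were lower in HepG2 by at least 1 log2 unit, among them VIM (-12.49) and KRT7 (-11.25). The lung lineage genes SFTPB, SFTPC and NKX2-1 did not mark A549, with differences of 0.21, -0.05 and 0.14 log2 units at dim probes. TGFBI did not either, with a difference of -0.17 at a probe that was bright in both lines (50514 in HepG2 control and 56732 in A549 control).

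HepG2 and A549 differed in the isozymes of several glycolytic steps, in the controls and with GSK343. The promoters of 4 of these genes are shown first, because LDHB was the member that differed most between the lines, HK2 and SLC2A2 were far higher in HepG2, and ALDOC was higher in HepG2 at both of its probes. The sequences are from RefSeq on GRCh38.p14, run from 250 bases before to 50 bases after a listed start, and are written 5′ to 3′ on the strand of the gene. Capitals mark ACGTG or GCGTG on either strand (a reverse match reads CACGT or CACGC).
LDHB, chr12:21657793-21658092, minus strand: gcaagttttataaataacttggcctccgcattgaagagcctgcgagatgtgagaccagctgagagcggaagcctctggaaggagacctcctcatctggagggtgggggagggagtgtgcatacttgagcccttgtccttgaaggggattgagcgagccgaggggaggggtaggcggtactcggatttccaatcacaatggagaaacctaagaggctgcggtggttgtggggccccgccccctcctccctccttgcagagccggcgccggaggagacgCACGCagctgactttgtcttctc
HK2, first window, chr2:74833877-74834176, plus strand: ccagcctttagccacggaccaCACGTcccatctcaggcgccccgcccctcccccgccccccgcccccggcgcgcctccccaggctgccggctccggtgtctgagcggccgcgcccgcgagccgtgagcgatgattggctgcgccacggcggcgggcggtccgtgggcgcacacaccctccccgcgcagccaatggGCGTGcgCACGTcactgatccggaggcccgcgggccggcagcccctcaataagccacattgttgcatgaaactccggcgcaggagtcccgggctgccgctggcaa
HK2, second window, chr2:74834920-74835219, plus strand: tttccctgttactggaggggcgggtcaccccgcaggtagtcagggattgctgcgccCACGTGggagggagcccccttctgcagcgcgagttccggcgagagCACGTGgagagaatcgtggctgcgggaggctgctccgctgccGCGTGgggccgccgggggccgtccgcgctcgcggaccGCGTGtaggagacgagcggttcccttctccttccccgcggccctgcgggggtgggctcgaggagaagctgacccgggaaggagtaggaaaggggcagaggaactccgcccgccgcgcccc
ALDOC, chr17:28576846-28577145, minus strand: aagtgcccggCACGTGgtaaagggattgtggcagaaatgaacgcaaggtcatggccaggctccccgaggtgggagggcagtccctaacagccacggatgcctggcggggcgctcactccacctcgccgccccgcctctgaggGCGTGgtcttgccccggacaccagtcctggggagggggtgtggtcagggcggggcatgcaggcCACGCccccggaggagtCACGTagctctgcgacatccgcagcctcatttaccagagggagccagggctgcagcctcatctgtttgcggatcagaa
SLC2A2, chr3:171026671-171026970, minus strand: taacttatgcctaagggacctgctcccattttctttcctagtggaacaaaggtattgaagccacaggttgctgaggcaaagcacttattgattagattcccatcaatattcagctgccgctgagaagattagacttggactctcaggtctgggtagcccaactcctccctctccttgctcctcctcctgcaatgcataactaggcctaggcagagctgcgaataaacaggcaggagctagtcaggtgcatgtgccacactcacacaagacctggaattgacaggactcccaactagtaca
The second HK2 window held 6 matches, the first held 3, ALDOC held 5, LDHB held 1 and SLC2A2 held 0. A palindromic CACGTG counts as a match on each strand, and there were 2 in the second HK2 window and 1 in ALDOC. LDHB and SLC2A2, with 14 and 2 CpG dinucleotides, had fewer CpG than the HK2 windows (38 and 34) and ALDOC (19). These letters are a description of the windows. Whether HIF binds them in these cells was not measured.

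Of the 37 listed genes, 34 had at least 1 promoter window, PGAM1 included and VEGFA, SLC2A3 and NDRG1 not, and 39 of their 61 windows (63.9%) held at least 1 match. Over all 35116 windows of the reference the share was 48.4%, and over the 19254 windows of genes with a probe of their own it was 54.9%. ACGTG alone was in 36.1% of member windows and in 23.0% of windows of genes with a probe. Member windows were also richer in CpG, with a median of 28 against 21 dinucleotides, and both motifs contain a CpG. Some genes contributed many windows, such as PFKM and HK1 with 7 each, and these shares are given without a test.

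Between the control arrays, 16 member probes were at least 1 log2 unit higher in HepG2 (background 12.8%) and 13 were lower (background 13.4%). To ask how far the lines differed over both conditions, limma was fitted to all 31607 probes with values above 0 on the 4 arrays, with agent as a covariate. The fit has 1 residual degree of freedom, and the residual of a probe is the disagreement of its line difference between control and GSK343. limma combines this with a trend over all probes that weighed as 5.89 prior degrees of freedom. The SE and adjusted p values given below therefore rest mostly on the variance of other probes. The arrays of a line are different conditions of it and not replicates. At an adjusted p under 0.05 (two-sided, Benjamini-Hochberg), 14 of 46 member probes were higher in HepG2 and 16 were lower. The background was 15.2% of all probes higher and 17.4% lower, against 30.4% and 34.8% of the member probes. Members were brighter than most probes, and among the 38 member probes at or above the median signal 10 were higher and 14 lower (26.3% and 36.8%), where all such probes gave 18.7% and 20.2%. By gene, every probe was called higher for 10 genes and lower for 13 genes, and no probe was called for 12. The background shares here are per probe, and the share by gene over all genes is not given, so these gene counts have no background. A difference of at least 1 log2 unit in both conditions was reached by 11 probes that were higher in HepG2 (background 7.98%) and by 12 that were lower (background 10.4%).

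**Figure D1:**
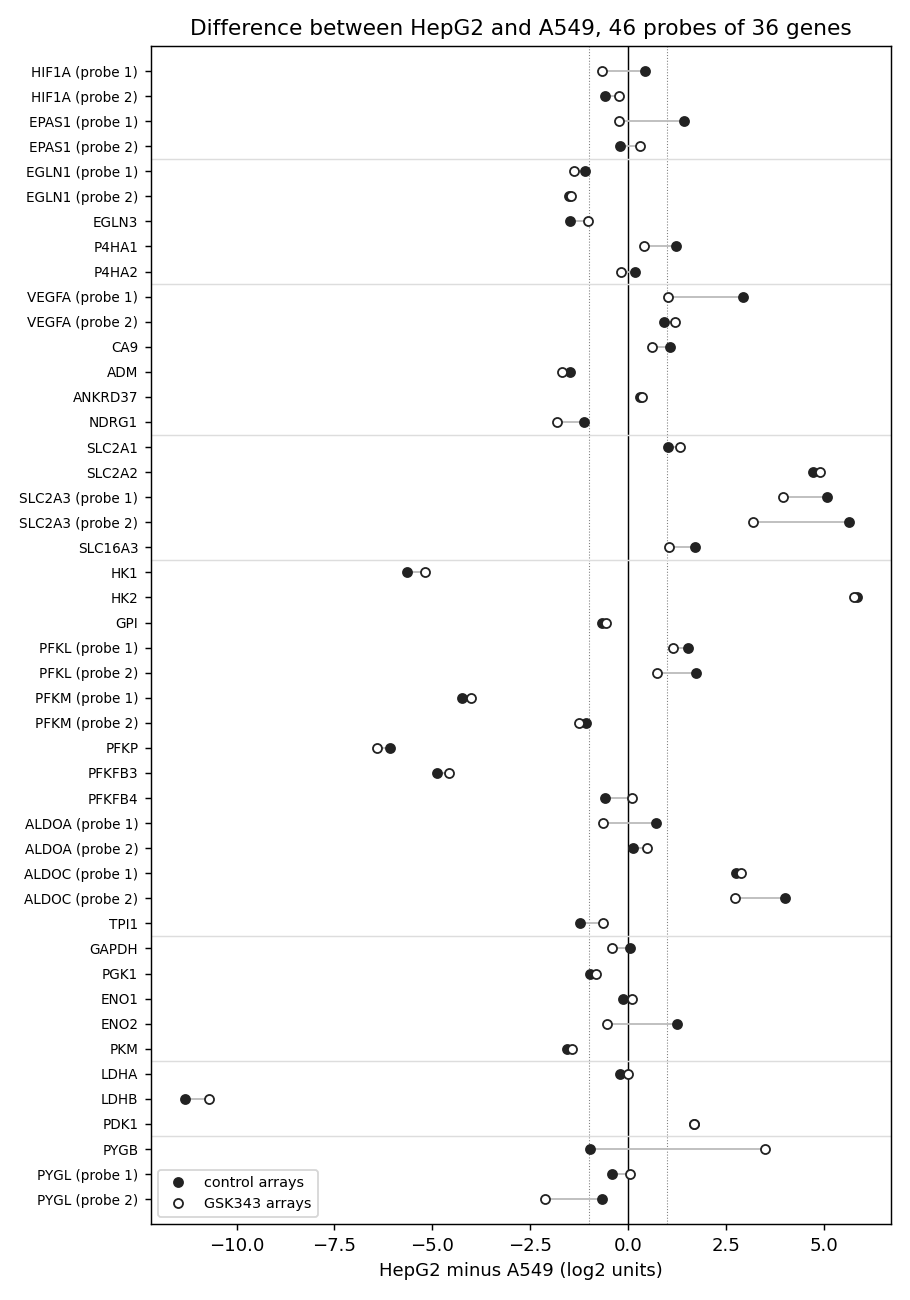
Difference between HepG2 and A549 in log2 units (x axis) for each of 46 probes of 36 genes (y axis), in the control arrays (filled) and the GSK343 arrays (open), with grey lines between roles and dotted lines at 1 log2 unit. LDHB lies farthest to the left at -11.33 and -10.70, HK2 farthest to the right at 5.84 and 5.76, and PYGB is on opposite sides of 0 in the 2 conditions.

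LDHB, the lactate dehydrogenase subunit of oxidative tissues, favours the conversion of lactate to pyruvate and had intensities of 97.3 in HepG2 control, 117 in HepG2 GSK343, 250046 in A549 control and 194441 in A549 GSK343. The HepG2 values were at percentiles 24.6 and 28.5 of their arrays and the A549 values at percentile 99.9, so the lines did not overlap. A549 control was 2571-fold above HepG2 control and the GSK343 arrays differed 1664-fold, with a fitted difference of -11.01 ± 0.24 (SE) log2 units (limma, adjusted p = 1.03e-06). Only 3 of 31668 probes had a difference this low or lower in the controls, LDHB included. The files carry no detection flag, so whether the HepG2 signal of LDHB was above background is not known, and with an offset of 50 the control difference was -10.73 log2 units. LDHA, the subunit that favours lactate formation, was bright on all arrays, with 146358 in HepG2 control, 155690.0 in HepG2 GSK343, 170045 in A549 control and 155663 in A549 GSK343. Its line difference was -0.22 in the controls, less than the spread between probes, and was not called (adjusted p = 0.706).

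Hexokinases trap glucose in the cell as glucose-6-phosphate. HK1, the broadly expressed form, had intensities of 387 in HepG2 control, 468 in HepG2 GSK343, 19518 in A549 control and 17163 in A549 GSK343, and HK2, the form that insulin and HIF can raise, had 26224 in HepG2 control, 21856 in HepG2 GSK343, 457 in A549 control and 404 in A549 GSK343. The order of the lines was opposite for the 2 genes. HK1 was 50.4-fold lower in HepG2 control than in A549 control (-5.43 ± 0.23 (SE) log2 units over both conditions, limma adjusted p = 4.33e-06), and HK2 was 57.4-fold higher (5.80 ± 0.21 (SE), adjusted p = 2.55e-06). The difference was of similar size with GSK343, at 36.6-fold for HK1 and 54.1-fold for HK2. Each gene had a single probe, and levels of the 2 probes cannot be set against each other.

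Phosphofructokinase commits glucose to glycolysis, and its subunits are named for liver, muscle and platelets. PFKP, the platelet form, had 1290.5 in HepG2 control, 1052 in HepG2 GSK343, 87344 in A549 control and 89236 in A549 GSK343, which put A549 67.7-fold higher in the controls and 84.9-fold higher with GSK343 (limma adjusted p = 2.22e-06). PFKM, the muscle form, was also higher in A549, with 284 and 336 in HepG2 and 5368 and 5395 in A549 at one probe and 58.6 and 51.7 in HepG2 and 124 and 123 in A549 at a dim one. The control differences of these PFKM probes were -4.24 and -1.09, so they shared the direction and not the size. PFKL, the liver form, was higher in HepG2 at both probes, with 7267 and 7029 in HepG2 and 2514 and 3190.2 in A549 for one and 5348 and 4154 in HepG2 and 1598 and 2497 in A549 for the other. Its control differences were 1.53 and 1.74 log2 units (limma adjusted p = 0.00392 and 0.0154). PFKFB3, which makes fructose-2,6-bisphosphate, the strongest activator of phosphofructokinase, followed the platelet and muscle forms. Its intensities were 1758 in HepG2 control, 1544 in HepG2 GSK343, 51639 in A549 control and 37078 in A549 GSK343, so that A549 control was 29.4-fold above HepG2 control (adjusted p = 6.57e-06). PFKFB4, a related bifunctional enzyme, had 1188 in HepG2 control, 1832 in HepG2 GSK343, 1799 in A549 control and 1715 in A549 GSK343, and the lines overlapped.

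**Figure D2:**
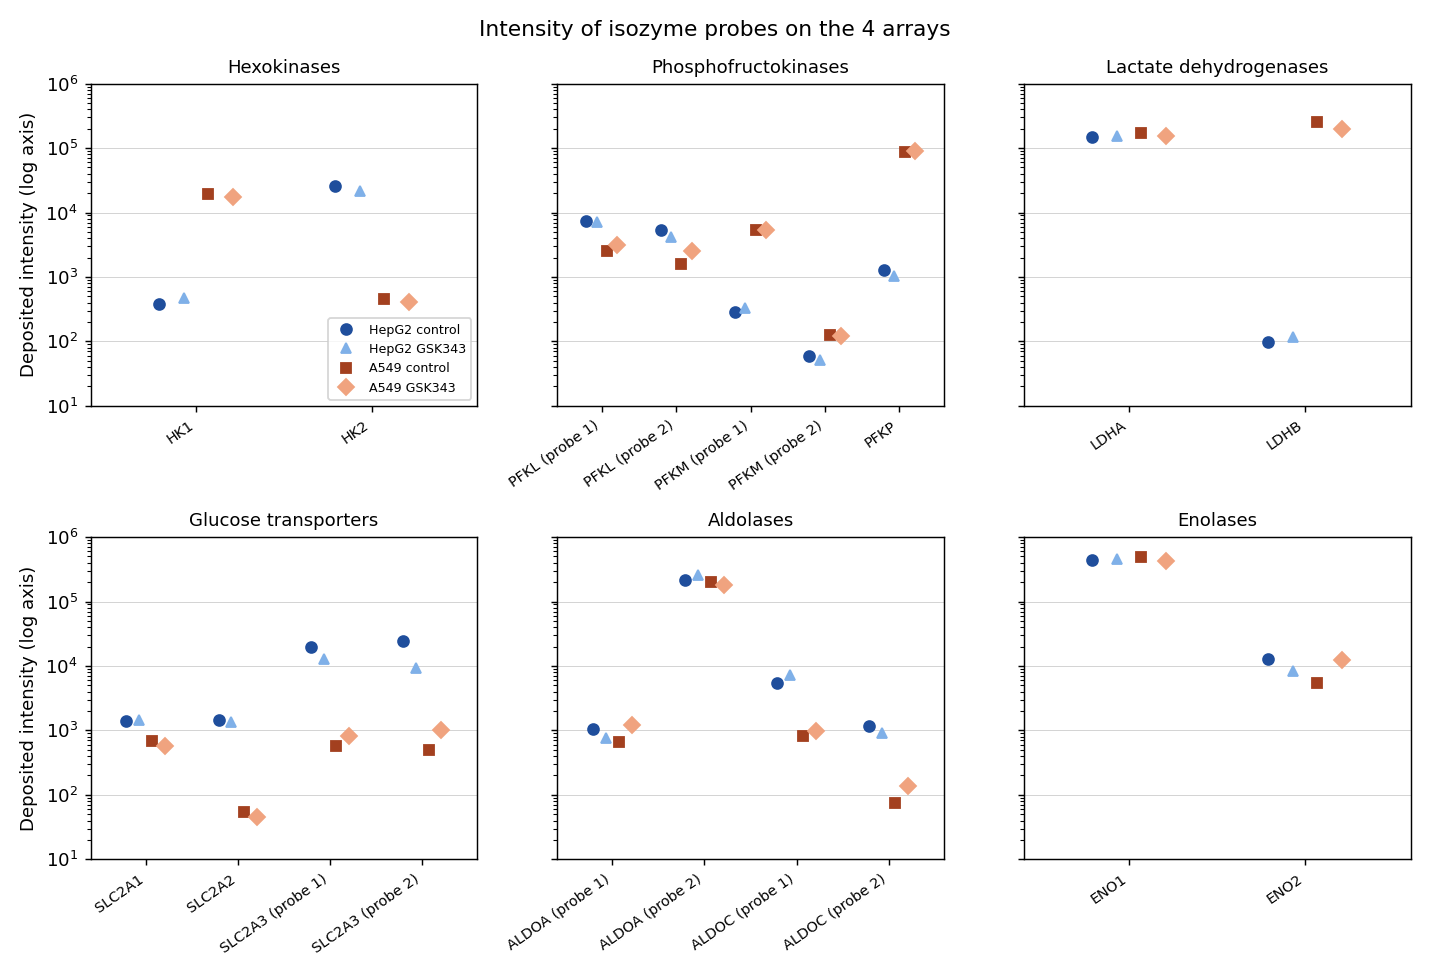
Deposited intensity (log axis) of probes for 6 isozyme sets (x axis) on the 4 arrays, with 1 point per array and no error bars because each condition had 1 array. HK1 and HK2 run in opposite order between the lines, LDHB lies far lower in HepG2 than in A549, and LDHA and ENO1 vary little over the arrays, while points of different probes cannot be compared in height.

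All 4 glucose and lactate transporters were called higher in HepG2. SLC2A2 (GLUT2), the low-affinity transporter of liver and pancreatic beta cells, had 1438 in HepG2 control, 1351 in HepG2 GSK343, 54.1 in A549 control and 45.0 in A549 GSK343, a difference of 26.6-fold in the controls (limma adjusted p = 3.38e-06). The A549 values were at percentiles 15.5 and 12.1 of their arrays, and the control difference of 4.73 log2 units became 3.84 with an offset of 50. SLC2A3 (GLUT3), the high-affinity transporter known from neurons, had 19449 in HepG2 control, 12636 in HepG2 GSK343, 574 in A549 control and 812 in A549 GSK343 at its first probe and 24666 in HepG2 control, 9249 in HepG2 GSK343, 497 in A549 control and 1012 in A549 GSK343 at its second. HepG2 control was thus 33.9-fold and 49.6-fold above A549 control, and the ranges of the lines did not overlap at either probe. SLC2A1 (GLUT1), the general transporter and a HIF target, differed less, with 1381 and 1455 in HepG2 and 678 and 577 in A549 and a fitted difference of 1.18 ± 0.21 (SE) (adjusted p = 0.00489). SLC16A3 (MCT4), which exports lactate, had 862 and 727 in HepG2 and 264 and 353 in A549 and was called higher in HepG2 (adjusted p = 0.00379). The median over these 4 genes was 3.22 log2 units in the controls, where the median over all genes was 0.07.

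Among the remaining enzymes of the upper pathway, ALDOC, the brain form of aldolase, was higher in HepG2, with 5429.6 and 7319 in HepG2 and 807 and 985 in A549 at one probe and 1189 and 919 in HepG2 and 74.0 and 138 in A549 at the other. The lines did not overlap at either ALDOC probe, and both were called (limma adjusted p = 6.81e-05 and 0.000183). ALDOA, the form of muscle and most other tissues, had 216558 and 255041 in HepG2 and 199199 and 182354 in A549 at its bright probe and 1071 and 777 in HepG2 and 656 and 1215 in A549 at its dim probe, with no call for either. GPI, which interconverts glucose-6-phosphate and fructose-6-phosphate, was lower in HepG2 by 0.66 log2 units in the controls, and its call (adjusted p = 0.0435) was lost in 4 of 6 alternatives. TPI1, which interconverts the triose phosphates, had -1.23 at its own probe (adjusted p = 0.022) and -0.15 at a probe shared with a pseudogene.

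The lower pathway, from the triose phosphates to pyruvate, had no line difference past 2 log2 units. GAPDH, which oxidises glyceraldehyde-3-phosphate and is often used as a reference gene, had 128338 in HepG2 control, 130283 in HepG2 GSK343, 124279 in A549 control and 173229 in A549 GSK343. Its control difference was 0.05, and the 3 lower values lay close together while A549 GSK343 stood above them. ENO1, the general enolase, lay between 431489 and 486227, with a control difference of -0.14. The probes that PGAM1 shares with PGAM4 differed by -0.30 to 0.23. PGK1, which makes the first ATP of the pathway, was lower in HepG2 (-0.96 and -0.82, adjusted p = 0.0182), as was PKM, pyruvate kinase of non-liver tissues, with 67128 and 64906 in HepG2 and 198415 and 175298 in A549 (adjusted p = 0.000891). PDK1, which keeps pyruvate out of mitochondria by inhibiting pyruvate dehydrogenase, was higher in HepG2, with 3036 and 3147 in HepG2 and 948 and 988 in A549. Its difference was 1.68 in the controls and 1.67 with GSK343 (adjusted p = 0.000882).

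The HIF alpha subunits themselves were not called between the lines. HIF1A had 20928 in HepG2 control, 17637 in HepG2 GSK343, 15439 in A549 control and 27896 in A549 GSK343 at one probe and 10866 in HepG2 control, 12258 in HepG2 GSK343, 16445 in A549 control and 14310.1 in A549 GSK343 at the other, with control differences of 0.44 and -0.60. EPAS1 (HIF-2α) was bright at one probe, with 37821 in HepG2 control, 39160.3 in HepG2 GSK343, 43826 in A549 control and 31897 in A549 GSK343, and dim at the other, with 375 in HepG2 control, 216 in HepG2 GSK343, 139 in A549 control and 256 in A549 GSK343. The limma adjusted p of these 4 probes ran from 0.209 to 0.912. The oxygen sensor EGLN1 (PHD2), by contrast, was lower in HepG2 at both probes, with 10026 and 8836 in HepG2 and 28725 and 24178 in A549 at the brighter one and 809 and 679 in HepG2 and 1728 and 1758 in A549 at the dimmer one. The differences of -1.52 and -1.09 in the controls were both called (adjusted p = 0.00162 and 0.00406). EGLN3, a sensor that HIF induces, was near the floor of every array at 14.5 to 43.6, and its difference of -1.48 in the controls (limma adjusted p = 0.0139 over both conditions) became -0.51 with an offset of 50. The collagen prolyl hydroxylases P4HA1 and P4HA2, which use the same chemistry on procollagen, were not called, with control differences of 1.23 and 0.17.

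HIF targets outside glycolysis went in both directions between the lines. VEGFA, the main angiogenic factor, was higher in HepG2, with 5448 in HepG2 control, 5336 in HepG2 GSK343, 2891 in A549 control and 2334 in A549 GSK343 at the brighter probe and 1049 in HepG2 control, 613 in HepG2 GSK343, 138 in A549 control and 303 in A549 GSK343 at the dimmer one. Both were called (limma adjusted p = 0.00991 and 0.01), but the control differences of 0.91 and 2.93 were far apart. CA9, a carbonic anhydrase of pH control and a standard hypoxia marker, was under the median of every array, with 318 and 269 in HepG2 and 151 and 176 in A549, and was called higher in HepG2 (adjusted p = 0.0203). ADM, a vasodilator peptide, was lower in HepG2 with 769.7 and 649 in HepG2 and 2138 and 2075 in A549, and so was NDRG1, a stress-induced gene, with 837 and 686 in HepG2 and 1819.5 and 2426 in A549 (adjusted p = 0.0012 and 0.00361). ANKRD37, a HIF target of little known function, lay between 142 and 195 and was not called. Thus the members of this group did not share 1 direction, and 3 of 5 genes were above 0 in the controls.

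With GSK343, few of these genes differed from control by as much as the lines differed from each other. In HepG2, 0 member probes were at least 1 log2 unit higher and 1 was lower, where 0.648% and 2.54% of all probes were. In A549, 3 member probes were higher and 1 was lower, where the background was 1.58% and 0.764%. The median over the 36 genes was -0.11 in HepG2 and 0.02 in A549, beside -0.02 and 0.04 over all genes. The A549 median of the members was below 0 with median centring, at -0.10. In the limma fit over both lines with cell line as a covariate, 0 member probes and 0.0% of all probes were called in either direction. The error of this GSK343 term combines the disagreement of the lines, with 1 residual degree of freedom, with the trend over all probes. The lack of calls therefore cannot show that GSK343 made no difference. At an unadjusted p under 0.05 there was 1 member probe, that of PYGB, and 4.07% of all probes. With 1 array per condition no test within a line was possible.

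ENO1, LDHA, PKM, GPI and PGK1 differed with GSK343 by less than the spread between probes. The values were, for ENO1, 0.06 in HepG2 and -0.17 in A549, for LDHA 0.09 and -0.13, for PKM -0.05 and -0.18, for GPI 0.11 and 0.00 and for PGK1 0.07 and -0.08. HK1, HK2, PFKP and LDHB, which set the lines apart, also differed by less than that spread with GSK343. Their values in HepG2 and A549 were 0.28 and -0.19 for HK1, -0.26 and -0.18 for HK2, -0.30 and 0.03 for PFKP, and 0.26 and -0.36 for LDHB. The brightest 25% of pairs had a smaller spread, 0.26 in HepG2 and 0.35 in A549. Each of these HepG2 values, and that of LDHB in A549, was at or slightly past that smaller spread. Among other isozymes that differed between the lines, ALDOC, PFKL and SLC2A3 each had a probe past the spread in A549, at 0.90, 0.64 and 1.03. GAPDH differed by 0.02 in HepG2 and 0.48 in A549, from a single probe. PFKFB3 had -0.48 in A549, slightly more than the spread there. PFKFB4 was the member with the largest positive difference in HepG2, at 0.63, and had -0.07 in A549.

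**Figure D3:**
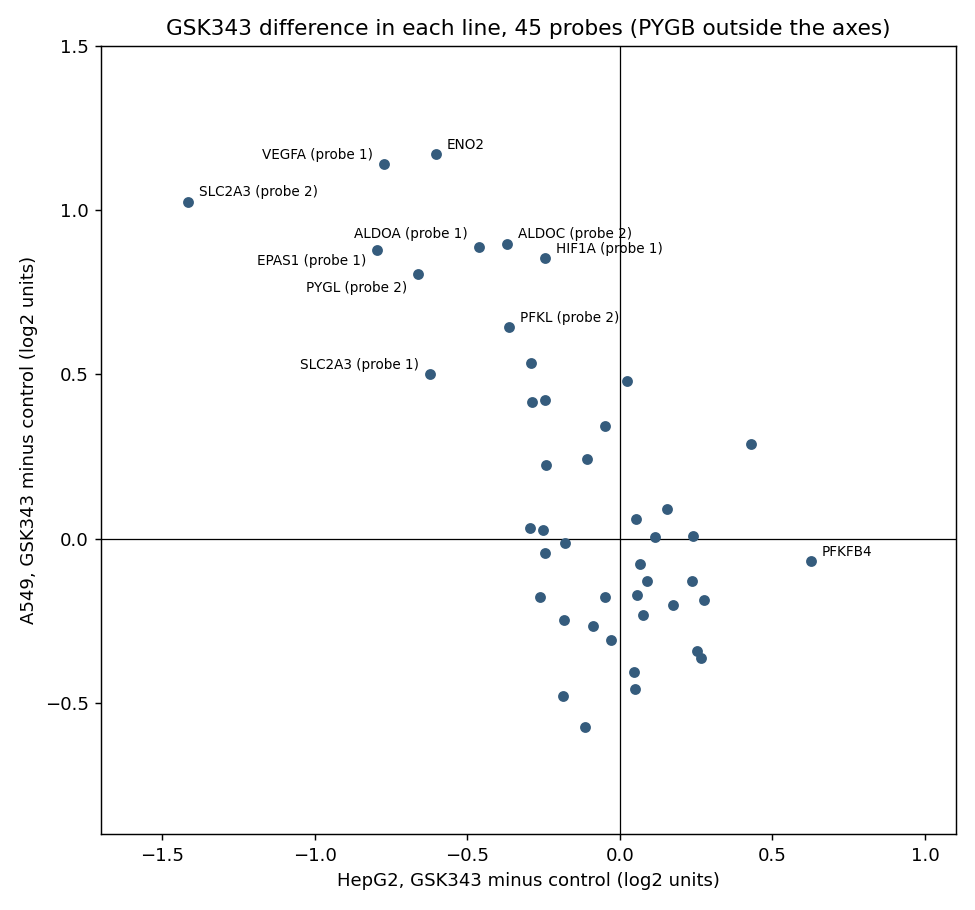
GSK343 minus control in log2 units in HepG2 (x axis) and A549 (y axis) for 45 member probes, with names for those past 0.58 in either line; PYGB, at -0.17 and -4.66, lies outside the axes. Many named probes fall in the upper left, lower in HepG2 and higher in A549, with SLC2A3 probe 2 at -1.42 and 1.03.

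Of the 10 genes with 2 probes, only SLC2A3 had both probes past the spread in each line, lower in HepG2 and higher in A549. In HepG2 the probes went from 19449 to 12636 and from 24666 to 9249, differences of -0.62 and -1.42. In A549 they went from 574 to 812 and from 497 to 1012, differences of 0.50 and 1.03. The 0.50 was only slightly past the A549 spread of 0.42, and median centring lowered the A549 differences by more than that margin. The gene mean in A549 was 0.76, and 0.65 with median centring. The gene mean of -1.02 in HepG2 was the lowest of the members there, and it was -0.95 with median centring. ENO2, the neuronal enolase and a HIF target, had a single probe with a difference of -0.60 in HepG2 and 1.17 in A549. Its intensities of 12922 in HepG2 control, 8499 in HepG2 GSK343, 5462 in A549 control and 12300.3 in A549 GSK343 meant that the order of the lines differed between control and GSK343.

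PYGB, the brain form of glycogen phosphorylase, which releases glucose units from glycogen, had 16783 in HepG2 control, 14872 in HepG2 GSK343, 33249 in A549 control and 1316 in A549 GSK343. Its A549 difference of -4.66 was among the 4 lowest of 31667 probes, while the other 3 arrays lay within 14872 to 33249. The gene had 1 probe, so no second probe could be set beside it, and without this probe 0 of 35 genes were at least 1 log2 unit lower in A549. PYGL, the liver form, had 2012 in HepG2 control, 2077 in HepG2 GSK343, 2657 in A549 control and 2004 in A549 GSK343 at one probe and 1116 in HepG2 control, 705 in HepG2 GSK343, 1766 in A549 control and 3085 in A549 GSK343 at the other. The second PYGL probe was called lower in HepG2 (limma adjusted p = 0.0208) and the first was not. With GSK343 the second differed by -0.66 in HepG2 and 0.80 in A549, and the first by 0.05 and -0.41.

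Several other GSK343 differences were seen at only 1 of the 2 probes of a gene. VEGFA had -0.77 in HepG2 and 1.14 in A549 at the dimmer probe and -0.03 and -0.31 at the brighter one. EPAS1 had -0.80 and 0.88 at the dim probe and 0.05 and -0.46 at the bright one. HIF1A had -0.25 and 0.85 at one probe and 0.17 and -0.20 at the other. For these 3 genes the sign in A549 depended on the probe. ALDOA likewise had 0.89 at the dim and -0.13 at the bright probe in A549. ALDOC had -0.37 and 0.43 in HepG2. Of the 10 genes with 2 probes, the signs were opposite in 6 in HepG2 and in 7 in A549, and in 6 genes of each line the gap between the probes was larger than the SD of such gaps over all genes. For the difference between the control arrays, the signs were opposite in only 2 of the 10 genes. The same counts over all genes with several probes are not given here, so these counts cannot be read as particular to the members.

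**Figure D4:**
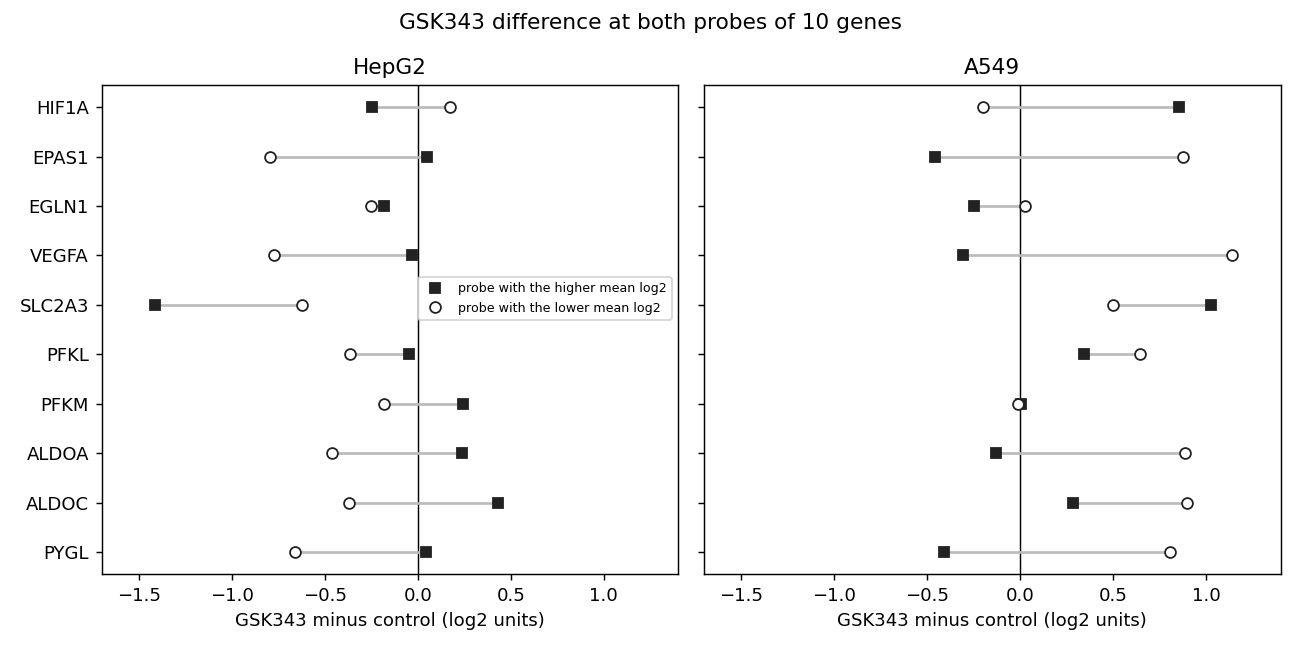
GSK343 minus control in log2 units (x axis) at both probes of the 10 genes that had 2 (y axis), in HepG2 (left) and A549 (right), with squares for the probe of higher mean log2 intensity. In A549 the probes of HIF1A, EPAS1, VEGFA, ALDOA and PYGL lie far apart on both sides of 0, while those of SLC2A3 and PFKL lie on the same side.

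Over all 46 probes, 30 had GSK343 differences of opposite sign in the 2 lines (65.2%), where 58.8% of all probes did. Among brighter probes, 26 of 38 member probes did (68.4%), where the background was 65.1%. Lower in HepG2 and higher in A549 was the pattern of 18 member probes (39.1%, background 32.8%). Opposite differences of at least 0.58 log2 units in each line were found at 5 member probes (10.9%), of VEGFA, EPAS1, ENO2, PYGL and SLC2A3, where 1.82% of all probes had them. All 5 were lower in HepG2 and higher in A549, whereas the 1.82% counts both directions. No share for that direction alone, or for brighter probes alone, is given at this size. ENO2 had 1 probe, and in each of the other 4 genes the second probe missed this size in at least 1 line, SLC2A3 with -0.62 and 0.50. The difference of the GSK343 effect between the lines could not be tested, since 4 arrays leave no error for it.

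Other genes of these pathways were read from lists of HIF regulators, other HIF targets, other isozymes, and gluconeogenesis and glycogen, of which 57 of 62 genes had a probe of their own. By gene means, 0 of the 57 were at least 1 log2 unit higher or lower with GSK343 in HepG2, where 0.458% and 1.87% of all genes were. In A549, 1 was higher and 0 were lower, where the background was 0.932% and 0.534%. That gene was DDIT4, an inhibitor of mTORC1 signalling raised by hypoxia and other stresses, with 1841 in HepG2 control, 1892 in HepG2 GSK343, 1837 in A549 control and 4019.6 in A549 GSK343 and a difference of 1.13. Single probes of CA12 and LOX, chosen after their values were seen, went further than DDIT4. One of 2 CA12 probes had 2608 and 6793 in HepG2 control and GSK343, a difference of 1.38, and one of 3 LOX probes had 149.9 and 468 in A549, a difference of 1.64. The other CA12 probe had a difference of 0.11 in HepG2, and the other LOX probes had 0.01 and -0.12 in A549. Between the control arrays 10 of the 57 genes were higher in HepG2 by at least 1 log2 unit and 8 were lower, where 13.0% and 13.7% of all genes were. For the 36 members these counts were 12 and 11.

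The HIF partner ARNT2, a relative of ARNT known from neurons, was lower in HepG2, with 120.3 and 119 in HepG2 and 4809 and 5173 in A549 (limma adjusted p = 2.62e-06). CA12, a carbonic anhydrase induced by HIF, was 311-fold and 52.4-fold lower in HepG2 control than in A549 control at its 2 probes. PDK4, the pyruvate dehydrogenase kinase of fasting, was also lower in HepG2, with 61.7 and 53.8 in HepG2 and 2121 and 3293 in A549, the opposite order to PDK1. EPO, the hormone of red cell production that HIF-2 raises in liver and kidney, had 1165 and 1058 in HepG2 and 53.1 and 39.1 in A549, and the lines did not overlap. LOX, which crosslinks collagen, AK4, a mitochondrial adenylate kinase, and PCK2, the mitochondrial form of phosphoenolpyruvate carboxykinase, were higher in HepG2 control, by 3.72, 3.38 and 3.44 log2 units as gene means. Some of these levels were dim. EPO in A549 was at percentiles 15.1 and 9.9 of its arrays, and PDK4 in HepG2 at 17.6 and 16.2. The LOX probes were at percentiles 10.4, 11.9 and 32.4 in A549 control. Whether these signals were above background is not known, so the sizes are uncertain.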

How the data were processed

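RNA of HepG2 and A549 cultures, control or GSK343, was amplified, labelled with Cy5 and hybridised to Human OneArray Plus, per the labels. The paper's methods describe these arrays for HepG2. The deposited series matrix holds 1 intensity per probe and array on a linear scale, and how the authors scanned, corrected and normalized these intensity values is not given in the sources used here. There are no detection flags, so a level near background cannot be told from none. All 4 value columns were used. Probes were named from the platform annotation, keeping those with 1 gene.

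Intensities above 0 were log2-transformed with no further scaling, and a gene value is the mean over its probes. Differences within a line have no replicate and no test. Line and agent were fitted to all probes with limma 3.58.1 (lmFit and eBayes with trend, two-sided, Benjamini-Hochberg) in R 4.3.3, tested on simulated data. The spread between probes was computed over all pairs of probes of 1 gene. The number of arrays limits the precision. All 4 intensities are given for HIF1A, EPAS1, GAPDH, each member past 0.58 log2 units with GSK343 and each past 2 between the lines in both conditions. Other pathway genes are named past 1 log2 unit with GSK343 or past 3 between the lines. GAPDH was the reference gene of the study's PCR. Promoter windows are RefSeq's. A comparison of isozyme proteins was planned and was not run. The members and all lists were chosen with earlier results of these data known. Alternatives were other scaling, an offset of 50, other probe choices, a size of 1.5 log2 units and other limma settings.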

Additional observations from a re-analysis of the deposited data

Results flagged for a closer look

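GSK343 differences of opposite direction in the lines, each at least 0.58 log2 units, were seen at 5 of 46 member probes (10.9%). Over all probes the share, in either direction, was 1.82%, and the difference between the lines was not tested. The first VEGFA probe had -0.77 in HepG2 and 1.14 in A549, and the second had -0.03 and -0.31. The first EPAS1 probe had -0.80 and 0.88, and the second 0.05 and -0.46. The ENO2 probe, the only one of its gene, had -0.60 and 1.17. The second PYGL probe had -0.66 and 0.80, and the first 0.05 and -0.41. The second SLC2A3 probe had -1.42 and 1.03, and the first -0.62 and 0.50. Each line had 1 control and 1 GSK343 array, so each difference rests on a single pair of arrays.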

How the results depend on the processing

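No paired analysis was possible because the labels carry no replicate numbers and each condition had 1 array. The limma line fit compared the lines within condition through its agent term, and without that term 15 member probes were higher and 16 lower. Over all probes, both directions together, more were also called without the agent term than with it. The share of all probes in each direction is not given for that setting, so these member counts have no matching background. Of the alternative counts, 73 stayed within 1.5 times the main count and 6 did not. The median over the members ran from -0.14 to -0.04 for GSK343 in HepG2, from -0.10 to 0.03 in A549, thus on both sides of 0, and from -0.21 to -0.00 between the control arrays. The 1 gene lower in HepG2 with GSK343 (SLC2A3) became 0 with median centring and 0 at a size of 1.5 log2 units. The 1 gene higher in A549 (ENO2) became 2 with the brightest probe per gene and 0 at 1.5 log2 units. The 1 gene lower in A549 (PYGB) became 0 without its probe, an alternative chosen after seeing the data. That outcome was fixed in advance, because PYGB was the only gene counted and had 1 probe, so it does not check the result. The 11 genes lower in HepG2 control than in A549 control became 6 at 1.5 log2 units. Among member probes in the limma fit, GPI lost its call in 4 of 6 alternatives (adjusted p = 0.0678 to 0.186 there), TPI1 in 1 (0.0503), and P4HA1 gained one in 4 (0.0251 to 0.0477). No called value reversed its direction in the alternatives run. The comparison of isozyme proteins was not run.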
